A study of Danio rerio with 6 samples.

Results

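Eph receptors and their ligands, the ephrins, were followed in zebrafish embryos that lack functional *hoxb1b*. The genes were taken from the deposited count table by symbol, as every row beginning with eph or efn, then a or b, then a digit. This gave 17 of the 13466 listed genes, with 8 receptors and 9 ephrins. RefSeq holds 32 gene symbols that match the rule, and 15 of them are not listed in the table. Counts, medians and sums below therefore cover the listed genes that match the rule and not the whole family. The rule used symbols alone and no measured value, but the set was chosen with earlier results of these data known.

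Eph receptors are receptor tyrosine kinases, and both they and the ephrins are held in the cell membrane, so that signalling requires contact between cells. A-class ephrins are attached by a lipid anchor and B-class ephrins span the membrane, and signals run into the receptor-bearing and the ephrin-bearing cell. Receptors mostly bind ephrins of their own class, and EphA4 binds both classes. In the hindbrain the neural tube is divided into segments called rhombomeres (r), and complementary receptor and ephrin expression in alternating rhombomeres keeps their cells apart and sharpens the borders. The same genes act in somite boundary formation, in the separation of arteries and veins and in axon guidance.

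RNA was collected from pools of whole, dechorionated and deyolked embryos at 18hpf, raised at 28°C. The groups were wildtype controls and homozygous *hoxb1b* mutants (genotype *hoxb1b*-/-, allele um197), with 3 libraries of polyadenylated RNA each. The sources used here do not say whether each library had its own pool of embryos, so p-values measure the spread between these libraries, which may be technical. Estimated read counts per gene were scaled to CPM, counts scaled by the normalized library size, and genotypes were compared with edgeR's quasi-likelihood test over the 12471 genes with sufficient counts. Genes were called changed where the p-value, after Benjamini-Hochberg adjustment, was under 0.05. Log2 fold changes (FC) are mutant over wildtype with their standard error (SE). Whole embryos were sequenced, so fewer cells of a type and less RNA per cell cannot be told apart, and a change in a rhombomere cannot be separated from a change elsewhere. Any difference between the groups in exact stage or in clutch cannot be told apart from the genotype.

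Library totals lay between 19139322 and 29146812 counts, and the share of the 17 genes was 0.0658% to 0.0675% of the total in wildtype and 0.0781% to 0.0793% in mutants. Beyond counting noise, same-genotype libraries varied by an estimated 1.85%. *hoxb1b* transcripts were present in all libraries, at 66.4 to 70.6 CPM in wildtype and 83.8 to 85.3 CPM in mutants, so the transcript level does not verify the genotype by a loss. Markers of neurons, neural progenitors, neural crest, endothelium, muscle, epidermis, erythroid cells and hatching gland were all detected, as the label whole embryo implies.

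All 17 genes passed the filter on low counts, and 11 were called changed, 10 higher and 1 lower in the mutants. This is 64.7% of the genes, against 66.2% of all tested genes called in either direction. Higher calls made up 58.8% of the 17 genes and 32.6% of all tested genes, of which 33.6% were called lower, and the median log2 FC was 0.19 for the 17 genes and -0.0034 for all tested genes. Changes were small. No member passed a 1.5-fold criterion together with the adjusted p in edgeR, nor did any in DESeq2 or at an unadjusted p under 0.05 (0 genes in each case), whereas 18.6% of all tested genes were called with a fold change above 1.5 and 8.36% with a fold change above 2. The median size of the change was 1.16-fold among the 17 genes and 1.18-fold among all tested genes. The 95% intervals of 16 changes stayed within 1.5-fold in either direction, and that of *efnb2b* reached 0.587 on the log2 scale, just past it.

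**Figure D1:**
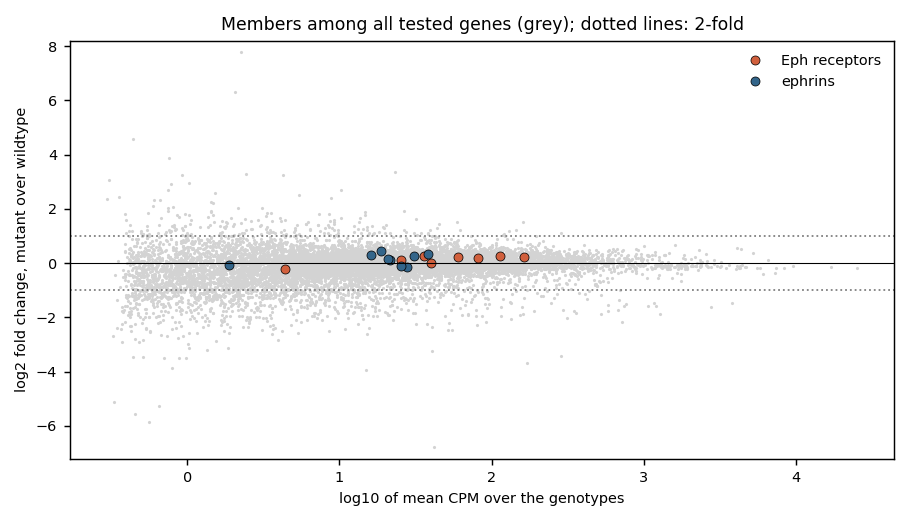
Log2 fold change (mutant over wildtype, vertical axis) against the log10 of mean CPM (horizontal axis) for the 12471 tested genes in grey, with Eph receptors in orange and ephrins in blue. The 17 genes lie between log2 FC -0.21 and 0.45, inside the dotted lines at 2-fold.

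The A-class receptors that were called, 3 of 4, all rose. *epha2a*, which encodes a receptor for A-class ephrins, stood at 151, 150.1 and 150.2 CPM in the wildtype libraries and 177, 179 and 176 CPM in the mutant libraries. The genotypes did not overlap, and the spread within either genotype was under 1% of the mean. The log2 FC was 0.24 (SE 0.02, adjusted p = 2.08e-09 from edgeR), a rise of 17.8%.

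*epha4a* encodes the receptor of r3 and r5, whose loss disrupts rhombomere boundaries. Its level was 105, 104 and 103 CPM in wildtype and 122, 123 and 125 CPM in mutant libraries. All mutant libraries lay above all wildtype libraries. The log2 FC was 0.25 (SE 0.03, adjusted p = 7.39e-09 from edgeR), a rise of 18.9%. Its duplicate *epha4b*, for which the study's supplementary hindbrain list notes a faint signal in r2, r4 and r6, had 33.4, 31.8 and 33.1 CPM in wildtype and 39.6, 39.5 and 38.7 CPM in mutants. It rose with a log2 FC of 0.26 (SE 0.04, adjusted p = 3.96e-06 from edgeR), and again the genotypes did not overlap.

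*epha7*, which in mouse acts in neural tube closure and axon mapping, had 24.3, 25.3 and 23.95 CPM in wildtype and 28.7, 26.5 and 24.6 CPM in mutants. Mutant replicate 3 lay within the wildtype range, and the log2 FC of 0.11 (SE 0.05, adjusted p = 0.0928 from edgeR) was not called. Without mutant replicate 3 it was 0.17 and called (adjusted p = 0.0149 from edgeR). Summed over the 4 A-class receptors, the level was 310 to 314 CPM in wildtype and 365 to 368 CPM in mutants, and *epha2a* and *epha4a* held most of it.

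Receptors of the B class divided into a pair that rose and a pair that was not called. *ephb4a* encodes the receptor of venous endothelium that faces ephrin-B2 on arteries, and the study's list also places it in r2, r5 and r6. It had 74.6, 75.0 and 78.6 CPM in wildtype and 84.6, 85.6 and 89.5 CPM in mutants, with no overlap. The log2 FC was 0.19 (SE 0.03, adjusted p = 1.01e-05 from edgeR). Its duplicate *ephb4b* had 55.6, 52.4 and 57.9 CPM in wildtype and 64.5, 67.5 and 62.7 CPM in mutants, also without overlap. The log2 FC was 0.23 (SE 0.04, adjusted p = 7.65e-06 from edgeR).

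*ephb3a*, a receptor that the study's list describes as present throughout the hindbrain, was the most even of the receptors. It had 40.3, 39.8 and 39.1 CPM in wildtype and 40.1, 39.6 and 39.5 CPM in mutants. Its fold change was 1.00 with a 95% interval from 0.945 to 1.06 (adjusted p = 0.99 from edgeR), so that changes beyond 1.06-fold lie outside the interval. *ephb2b*, whose mouse counterpart guides axons, was the receptor with the fewest counts, 66 to 143 per library. Its levels were 5.76, 4.98 and 3.38 CPM in wildtype and 3.45, 3.83 and 4.83 CPM in mutants. The libraries overlapped, and the log2 FC of -0.21 (SE 0.15, adjusted p = 0.211 from edgeR) was not called. Wildtype replicate 3 was lowest of all, and without it *ephb2b* was called lower, with a log2 FC of -0.38 (adjusted p = 0.0185 from edgeR). The depth behind *ephb2b* leaves a 95% interval from 0.701-fold to 1.06-fold.

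**Figure D2:**
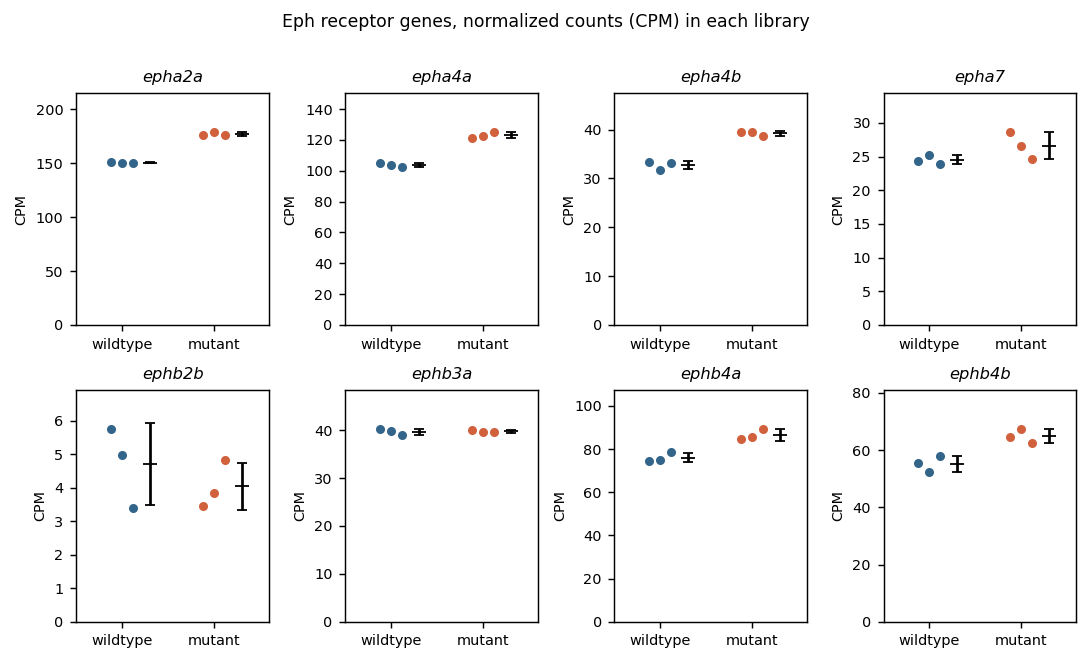
Normalized counts (CPM, vertical axis from 0) of the 8 Eph receptor genes in each wildtype (blue) and *hoxb1b* mutant (orange) library, with the mean and SD of 3 libraries in black. Mutant libraries lie above wildtype libraries for *epha2a*, *epha4a*, *epha4b*, *ephb4a* and *ephb4b*, and the genotypes overlap for *epha7*, *ephb2b* and *ephb3a*.

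Ephrins of the A class moved in different directions. *efna1a*, a ligand of A-class receptors, had 27.8, 27.5 and 29.7 CPM in wildtype and 34.1, 32.5 and 34.4 CPM in mutants. The genotypes did not overlap, and the log2 FC was 0.25 (SE 0.05, adjusted p = 2.68e-05 from edgeR). Its duplicate *efna1b*, the ligand first known in zebrafish as ephrin-A-L1 and expressed in segmenting mesoderm, had 30.9, 27.8 and 29.6 CPM in wildtype and 26.2, 27.4 and 25.9 CPM in mutants. It was the only member called lower, with a log2 FC of -0.15 (SE 0.05, adjusted p = 0.00872 from edgeR), and its mutant libraries lay just below its wildtype libraries. The call was lost without wildtype replicate 1 (log2 FC -0.11, adjusted p = 0.0788 from edgeR), without mutant replicate 3 (-0.13, adjusted p = 0.0542), with total count scaling (-0.11, adjusted p = 0.0602) and with DESeq2 (-0.14, adjusted p = 0.076).

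*efna3b*, whose mouse counterpart is a ligand of EphA4 on astrocytes, rose. It had 14.7, 14.6 and 14.5 CPM in wildtype and 18.4, 18.5 and 16.9 CPM in mutants. The log2 FC was 0.29 (SE 0.06, adjusted p = 0.000179 from edgeR), and the genotypes did not overlap. In the RefSeq assembly GRCz12tu *efna3b* and *efna1b* are neighbours with 0 protein-coding genes between them, and their changes had opposite signs.

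The remaining A-class ephrins, *efna2a* and *efna5b*, form graded signals in the tectum that repel retinal axons. *efna2a* had 21.1, 21.3 and 19.6 CPM in wildtype and 22.1, 21.6 and 23.0 CPM in mutants. The mutant libraries all lay above the wildtype ones, yet the log2 FC of 0.10 (SE 0.05, adjusted p = 0.0962 from edgeR) did not pass the test. *efna5b* was the member with the fewest counts, 37 to 50 per library, and had 2.13, 1.63 and 2.00 CPM in wildtype and 2.11, 1.98 and 1.49 CPM in mutants. The libraries overlapped (log2 FC -0.08, SE 0.19, adjusted p = 0.729 from edgeR), and at this depth the 95% interval ran from 0.727-fold to 1.23-fold.

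Ephrins of the B class included the largest changes. *efnb2a*, the ephrin of r4 that acts against EphA4 at rhombomere borders and marks arterial endothelium, had 36.5, 30.5 and 34.6 CPM in wildtype and 42.5, 44.1 and 41.1 CPM in mutants. The genotypes did not overlap, although wildtype replicate 2 was well below the other wildtype libraries. The level rose by 25.4% (log2 FC 0.33, SE 0.05, adjusted p = 1.89e-06 from edgeR), and leaving out single libraries gave a log2 FC between 0.25 and 0.39. *efnb2b*, its duplicate, had 16.3, 15.1 and 16.7 CPM in wildtype and 19.3, 22.2 and 23.4 CPM in mutants. It had the largest change of the 17 genes, a rise of 36.8% (log2 FC 0.45, SE 0.07, adjusted p = 8.19e-07 from edgeR), without overlap of the genotypes. By size this change ranked 3237 among the 12471 tested genes.

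*efnb3b*, listed by the study in r2, r4 and r6 and related to the mouse midline repellent ephrin-B3, had 18.9, 19 and 21.6 CPM in wildtype and 20.6, 24.1 and 21.0 CPM in mutants. The genotypes overlapped, and the call rested on single libraries. The log2 FC was 0.15 (SE 0.06, adjusted p = 0.0385 from edgeR). It was not called without wildtype replicate 1 (0.12, adjusted p = 0.158), without wildtype replicate 2 (0.12, adjusted p = 0.145), without mutant replicate 2 (0.08, adjusted p = 0.277) or with DESeq2 (0.16, adjusted p = 0.11). *efnb1*, a ligand required in mammals for craniofacial and skeletal patterning, had 25.4, 27.4 and 25.5 CPM in wildtype and 25.3, 23.4 and 24.8 CPM in mutants. Its mutant libraries lay below its wildtype libraries by a narrow margin, and the log2 FC of -0.09 (SE 0.05, adjusted p = 0.115 from edgeR) was not called.

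**Figure D3:**
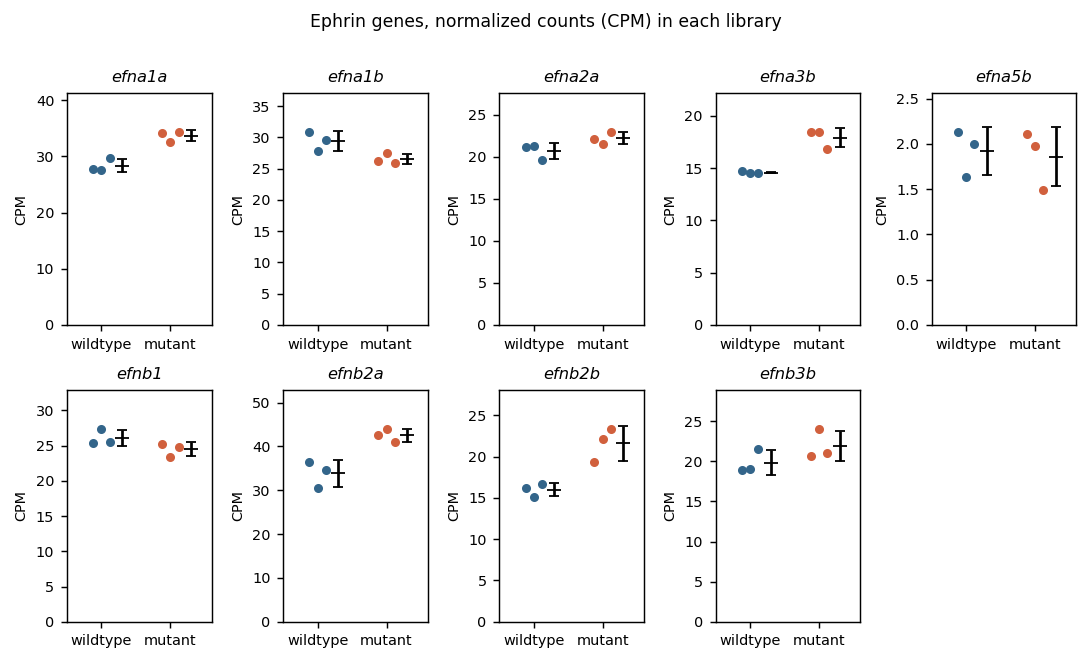
Normalized counts (CPM, vertical axis from 0) of the 9 ephrin genes in each wildtype (blue) and *hoxb1b* mutant (orange) library, with the mean and SD of 3 libraries in black. Mutant libraries lie above wildtype libraries for *efna1a*, *efna2a*, *efna3b*, *efnb2a* and *efnb2b*, below for *efna1b* and *efnb1*, and among them for *efna5b* and *efnb3b*.

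Rises outnumbered falls among receptors and among ephrins. Of the 8 receptors, 5 rose, 0 fell and 3 were not called, with a median log2 FC of 0.21. The 0 holds for DESeq2 as well, and none of these 8 was lower at an unadjusted p under 0.05. It does not cover the receptor entry *ek1*, which falls outside the symbol rule and was called lower, as given below. Of the 9 ephrins, 5 rose, 1 fell and 3 were not called, with a median log2 FC of 0.15. Calls in either direction thus made up 62.5% of the receptors and 66.7% of the ephrins, against 66.2% of all tested genes, of which 32.6% were called higher and 33.6% lower. The summed level of the receptors was 483 to 490.1 CPM in wildtype and 559 to 565 CPM in mutants, a ratio of 1.15. The summed level of the ephrins was 185 to 194 CPM in wildtype and 211 to 216 CPM in mutants, a ratio of 1.12. By class the ratios of mutant to wildtype sums were 1.18 for A-class receptors, 1.11 for B-class receptors, 1.08 for A-class ephrins and 1.15 for B-class ephrins. The sums weight each gene by its own count and were not tested. In 10 genes all mutant libraries lay above all wildtype libraries, in 2 all lay below, and in 5 they overlapped, which leaves 12 of 17 separated. Among all tested genes, 68.1% were separated, 33.7% with the mutants above and 34.5% with the mutants below. Sums over genes and ratios between genes are of counts, and levels per transcript are not compared, because transcript lengths were not used here.

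**Figure D4:**
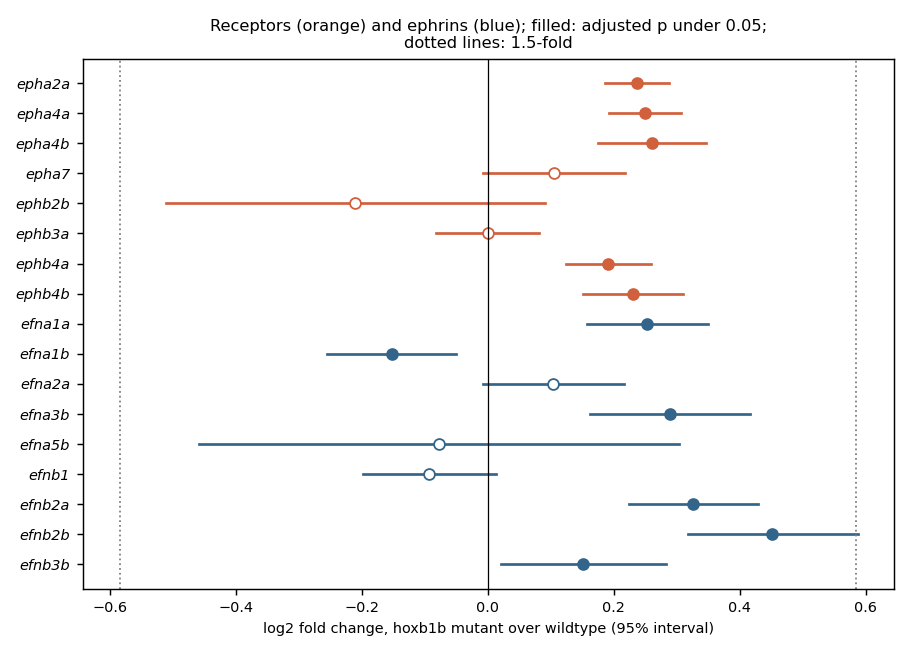
Log2 fold change (mutant over wildtype, horizontal axis) with 95% interval for each receptor (orange) and ephrin (blue), where filled points have an adjusted p under 0.05 and dotted lines mark 1.5-fold. The 10 filled points to the right of 0 lie between 0.15 and 0.45, and *efna1b* at -0.15 is the only filled point to the left.

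Among the 17 genes, 4 pairs are duplicates that the zebrafish keeps as a and b copies, and the ratio of their counts within a library does not depend on scaling between libraries. For *efna1a* over *efna1b*, the log2 ratio was -0.15, -0.02 and 0.00499 in wildtype and 0.38, 0.24 and 0.41 in mutant libraries. Counts of the 2 copies, not corrected for length, were about equal in wildtype, and *efna1a* had more counts than *efna1b* in every mutant library. The mean log2 ratio moved by 0.40, and the exact two-sided permutation test gave p = 0.1, which is the lower limit for 3 against 3 libraries, and an adjusted p of 0.4 over the 4 pairs. The other pairs overlapped between genotypes. The mean log2 ratio of *epha4a* over *epha4b* was 1.66 ± 0.04 in wildtype and 1.65 ± 0.04 in mutants (SD, n = 3 each, exact permutation p = 0.6). That of *ephb4a* over *ephb4b* was 0.46 ± 0.05 in wildtype and 0.41 ± 0.09 in mutants (SD, n = 3 each, exact permutation p = 0.4). That of *efnb2a* over *efnb2b* was 1.08 ± 0.08 in wildtype and 0.98 ± 0.16 in mutants (SD, n = 3 each, exact permutation p = 0.4). A design of this size cannot reach 0.05, so these values describe the libraries.

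**Figure D5:**
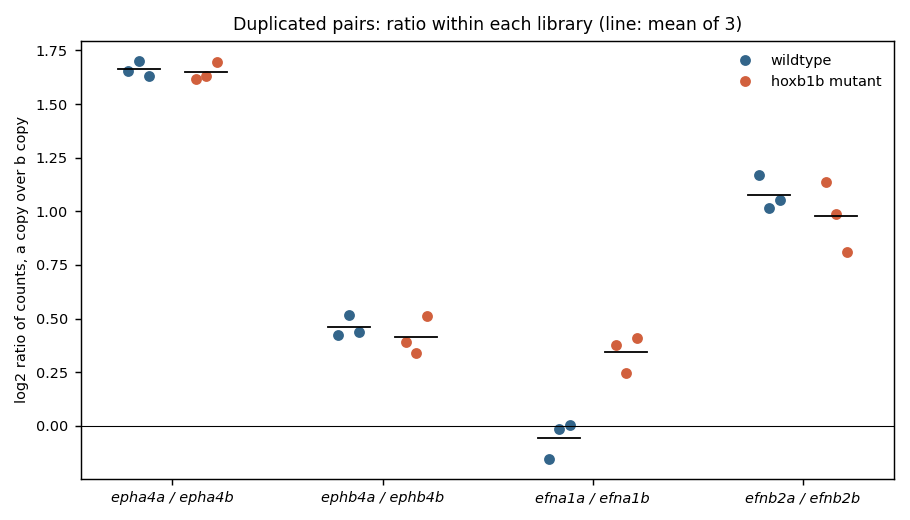
Log2 ratio of the counts of the a copy over the b copy (vertical axis) within each wildtype (blue) and *hoxb1b* mutant (orange) library for 4 duplicated pairs, with a line at the mean of 3 libraries. For *efna1a* over *efna1b* the mutant libraries lie between 0.24 and 0.41 and the wildtype libraries between -0.15 and 0.00499, while the other pairs overlap.

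The study's hindbrain list marks 5 of the 17 genes as rhombomere-restricted within the hindbrain, namely *efnb2a*, *efnb3b*, *epha4a*, *epha4b* and *ephb4a*. Some of the 5 are also transcribed outside the hindbrain, so in whole embryos their changes cannot be placed in rhombomeres. By in situ hybridization the study found *efnb2a* still expressed in *hoxb1b* mutants, in a smaller domain that it attributes to a smaller rhombomere. That staining shows position, whereas the CPM here are of whole embryos. All 5 were called higher, with log2 FC from 0.15 to 0.33 and a median of 0.25, where 32.6% of all tested genes were called higher, and *efnb3b* is the call noted above as resting on single libraries. They include the odd-rhombomere gene *epha4a*, and genes placed above in even rhombomeres, the ephrins *efnb2a* and *efnb3b* and, faintly, the receptor *epha4b*. The receptor *ephb4a* is placed in rhombomeres of both kinds. Of 19 other rhombomere genes tested, 11 rose (57.9%) and 3 fell, with a median log2 FC of 0.11. The mutated gene *hoxb1b* is itself among the 11 (log2 FC 0.29, adjusted p = 8.71e-09 from edgeR). The largest change among them was a fall, that of *cyp26b1*, which encodes an enzyme that breaks down retinoic acid (log2 FC -1.13). The transcription factor gene *egr2b* (*krox20*), whose mouse counterpart activates Epha4 directly in r3 and r5, stood at 27.9 ± 0.563 CPM in wildtype and rose to 47.6 ± 1.15 CPM in mutants (SD, n = 3 each; log2 FC 0.78, SE 0.04, adjusted p = 9.92e-16 from edgeR). *mafba* (*valentino*), a regulator of r5 and r6, was not called and stood at 55.2 ± 3.04 and 52.9 ± 0.442 CPM (SD, n = 3 each, adjusted p = 0.185 from edgeR). The duplicate *egr2a* was not called either (log2 FC -0.05, adjusted p = 0.609 from edgeR). The rise of *egr2b* was 1.71-fold and that of *epha4a* 1.19-fold, and whether they are linked was not tested.

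Partners of Eph and ephrin signalling were read from a list of 55 symbols, of which 39 were tested. They include cytoplasmic kinases, adaptors, exchange factors and the proteases that cleave ephrins. Of the 39 genes, 12 rose, 10 fell and 17 were not called, with a median log2 FC of -0.00515. The share called was 56.4%, against 66.2% of all tested genes, and the share called higher 30.8%, against 32.6%. Of the partners, 1 passed the call with a fold change above 2, *grb10a*, an adaptor of receptor tyrosine kinases, which stood between 5.995 and 7.49 CPM in wildtype and rose to between 19.8 and 21.2 CPM in mutants (log2 FC 1.66, SE 0.08, adjusted p = 1.74e-17 from edgeR). *grb10a* also serves insulin receptor signalling and is not particular to Eph receptors. *adam10a*, a copy of the membrane protease that sheds ephrins in mammals, and *fyna*, a Src family kinase gene, were chosen after their values were seen, as were their relatives *adam10b*, *fynb* and *src*. *adam10a* fell from 154.5 ± 1.64 to 132.5 ± 0.718 CPM (SD, n = 3 each), and *fyna* from 20.5 ± 0.837 to 15.7 ± 0.667 CPM (SD, n = 3 each), with log2 FC of -0.22 and -0.39, both called. *fynb* and *src* rose, with log2 FC of 0.29 and 0.39, while *adam10b* fell by a log2 FC of -0.08 (adjusted p = 0.0471 from edgeR) with overlapping libraries. Another receptor entry, *ek1*, carries the RefSeq synonym epha3 but falls outside the symbol rule. It was noticed after its value was seen, and stood at 32.5, 32.9 and 30.4 CPM in wildtype and 29.9, 27.7 and 26.1 CPM in mutants, all below wildtype (log2 FC -0.21, SE 0.05, adjusted p = 0.00079 from edgeR).

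Markers of tissues that use these genes, and of other cell types, were read beside the shares over all tested genes. Of all tested genes 66.2% were called, 32.6% higher and 33.6% lower. Of 19 somite and presomitic genes tested, 18 rose and 1 fell, with a median log2 FC of 0.87, and their summed level was 1051 to 1076 CPM in wildtype and 1513 to 1531 CPM in mutants. The largest rises were those of *mespaa* (log2 FC 1.87, from 1.4 to 5.2 CPM) and *mespab* (1.57, from 2.1 to 6.2 CPM), both at low levels. They mark the segmenting mesoderm where *efnb2a*, *efna1b* and *epha4a* are also transcribed. Of these members, *efnb2a* and *epha4a* were called higher and *efna1b* lower. Of 10 muscle markers, 7 fell, and 3 rose, the myogenic transcription factor genes *myf5* (log2 FC 0.97), *myod1* (0.42) and *myog* (0.16). Their summed level, to which the actin gene *actc1b* contributed most (5601 CPM in wildtype and 2023 CPM in mutants), was 11130 to 11280 CPM in wildtype and 4296 to 4367 CPM in mutants. Of 14 endothelial markers, 4 rose and 6 fell, so that 71.4% were called. Their sum was 323 to 328 CPM in wildtype and 328 to 340 CPM in mutants. Within that sum, *pecam1* (log2 FC -2.10), *tek* (-0.70), *cdh5* (-0.61), *flt1* (-0.55), *kdrl* (-0.39) and *flt4* (-0.25) fell. Those that rose were *kdr* (0.58), *hey2* (0.47), *etv2* (0.46) and *aplnra* (0.27). The sum therefore does not give the amount of the tissue in which *ephb4a* and *efnb2a* act. Of 10 neuronal markers, 7 fell and 1 rose, with sums of 754 to 765 and 620.4 to 621 CPM. Of 7 neural progenitor markers, 5 rose and 1 fell, with sums of 1439 to 1454 and 1563 to 1577 CPM. Of 7 neural crest markers, 2 rose, 1 fell and 4 were not called, so that 42.9% were called. The fall was that of *crestin* (log2 FC -1.28), from a mean of 366 CPM in wildtype to 151 CPM in mutants. The sums were 753 to 763 CPM in wildtype and 562 to 574 CPM in mutants. *crestin* held a large part of the wildtype sum, so the sum does not give the amount of neural crest. Among 7 epidermal markers 4 rose and 2 fell, among 5 erythroid markers 1 rose and 3 fell, and all 4 hatching gland markers fell. None of the tested markers of these lists was at 0 in either genotype. The part of these markers in the changes of the receptors and ephrins was not tested.

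The calls depend on the small spread between libraries. With a coefficient of variation of 0.1 assumed between embryo pools, 2 of the 17 genes kept an adjusted p under 0.05, *efnb2a* (0.0273) and *efnb2b* (0.00397), where 34.6% of all tested genes did (edgeR's likelihood ratio test). With 0.2 assumed, none of the 17 did and 12.7% of all tested genes did.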

How the data were processed

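The authors deposited 1 table in which each gene has an estimated count of reads in each library, without scaling between libraries. The submitters' processing notes name RSEM 1.2.28, FastQC and DESeq2 and the builds GRCz10 and danRer7, without roles, and the aligner is not given in the sources used here. The table also holds the authors' own fold changes and adjusted p-values, which were not used. Libraries were assigned by the column names that the labels give.

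After rounding, these counts were fitted with edgeR 4.0.16 under R 4.3.3 (filterByExpr, TMM, glmQLFit and glmQLFTest, genotype as the only factor). Benjamini-Hochberg adjustment ran over all 12471 tested genes. SE is the size of the log2 fold change divided by the square root of F, and 95% intervals use the moderated degrees of freedom. Ratios of duplicates used a pseudocount of 0.5 counts. The fits were run on counts simulated under the same kind of model. Such a run cannot show whether the spread between libraries is that between embryo pools. Within a genotype, library pairs differed by 1.51 to 2.13 times the counting noise, so none was counted as a repeat deposit of another.

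All members were accounted for. Full values were planned for members past 1.5-fold and those listed as rhombomere-restricted in the hindbrain, and were given for all 17 because none passed 1.5-fold. The members and lists were chosen with earlier results of these data known. Alternatives tried were scaling by total counts, by the upper quartile or by DESeq2's size factors, the Wald test of DESeq2 1.42.0, a fit without rounding, a fit without the filter or with a minimum of 10 counts per library, a replicate block, leaving out each library, and assumed coefficients of variation of 0.2 and, added after seeing the data, 0.1. Sequences and transcript lengths were not used here, and gene coordinates served only to find neighbouring members. Figures were drawn with matplotlib 3.10.9.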

Additional observations from a re-analysis of the deposited data

How the results depend on the processing

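In the 14 alternatives other than an assumed spread, *epha2a*, *epha4a*, *epha4b*, *ephb4a*, *ephb4b*, *efna1a*, *efna3b*, *efnb2a* and *efnb2b* were called higher in all 14, while *efna1b* and *efnb3b* were called in 10 each. With each library left out in turn, 9 to 12 members were called, 9 to 11 higher and 0 to 2 lower, of which 5 to 6 receptors and 4 to 5 ephrins were higher, 0 to 1 receptors and 0 to 1 ephrins lower. With total count scaling and with DESeq2, 0 members, and so 0 ephrins, were called lower. Total count scaling, which moved the median of all genes from -0.0034 to 0.04, called 12 members, adding *efna2a* and *epha7*. Over all tested genes it called 8378, of which 56.6% were higher, against 8254 and 49.2% with TMM. Shares over all tested genes were not taken with libraries left out or with the replicate block. With an assumed coefficient of variation of 0.2, 0 members were called, so 0 receptors and 0 ephrins were higher and 0 ephrins lower. With 0.1, chosen after seeing the data, 2 members were called, with 0 receptors and 2 ephrins higher and 0 ephrins lower. *ephb3a*, at -0.000717, changed sign to 0.00206 (DESeq2's size factors), 0.0447 (total counts), 0.00905 (DESeq2), 0.00785 (no filter), 0.00172 (replicate block), 0.00134 and 0.00113 (assumed 0.2 and 0.1), and lay between -0.011 and 0.0111 with libraries left out, while *efna5b* lay between -0.184 and 0.0896.

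The sample titles number the replicates of both genotypes 1 to 3, and these numbers were used. In the table's headers the mutants run from 2 to 4, and no block was fitted by those numbers. Deviations of libraries with the same title number correlated at 0.0167, 0.000959 and 0.0147, and not every library correlated best with its own number. By the header numbers, the correlations were 0.0244 for the libraries numbered 2 and 0.0265 for those numbered 3. Correlations this small, from 3 libraries per genotype, cannot decide whether the libraries were paired. A replicate block called 11 members, 10 higher and 1 lower, as without it. Depth limits *efna5b* and *ephb2b*, with 143 counts or fewer in each library.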
